A study of Mus musculus with 12 samples.

Results

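Differentiation of the SUV420H2 knockout (KO) line of mouse embryonic stem (ES) cells was followed in 4 libraries of polyadenylated RNA, out of 12 in the series. The members were taken by their labels: 2 libraries of differentiated KO cells, 1 from day 8 and 1 from day 12, and 2 libraries of undifferentiated KO ES cells. The days served as the 2 replicates of the differentiated state and are also given singly. The 8 other libraries, from cells lacking SUV420H1 and SUV420H2 (DKO) and from wild-type (WT) cells in the same states, were used to ask whether the change differed between genotypes. Per the labels' protocol, which is the same for all samples, the cells had been passaged on gelatin with the compound called CHIR9901 there, named as a GSK3 inhibitor, to remove feeder cells. The labels do not describe how the cells were differentiated, whether the KO line is 1 clone, or whether the 2 ES libraries came from separate cultures. The p-values rest on the spread between the 2 libraries of each group, pooled over all 12 libraries. That spread may be technical for ES cells, and for differentiated cells it includes the difference between the days.

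SUV420H2 is a methyltransferase for histone H4 that acts mainly at constitutive heterochromatin. Mouse ES cells hold a self-renewing state through core factors such as OCT4 (Pou5f1), SOX2 and NANOG and a naive network that includes KLF4, ESRRB and TFCP2L1. When they leave that state they usually pass through an epiblast-like stage marked by FGF5 and OTX2, and then form primitive streak, mesoderm, endoderm or neural cells. In bulk RNA from mixed cultures, fewer cells of a type and less RNA per cell cannot be told apart.

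Reads in genes numbered between 22538336 and 26675600 in the 12 libraries. The 2 KO libraries of days 8 and 12 had a median absolute log2 difference of 0.395 per gene, and the 2 KO ES libraries one of 0.162. On the first principal component (53.5% of the variance) KO day 8 scored 19.5 and KO day 12 103.9, against -69.2 and -68.8 in KO ES cells. WT days 8 and 12 scored 144.5 and 145, so both KO days lay between the ES libraries and differentiated WT cells. Suv420h2, the targeted gene on chromosome 7, was at 26.5 and 40.4 CPM (read counts scaled to library size by TMM) at days 8 and 12, against 19.2 and 17.4 CPM in KO ES cells. It did not pass the test (log2 fold change 0.87, SE 0.29, edgeR adjusted p = 0.066), although the groups did not overlap. In WT cells Suv420h2 was at 129 and 125 CPM at days 8 and 12, against 122 and 111 CPM in WT ES cells, so every KO library was below every WT library. Suv420h1, its paralogue, was at 49.9 and 51.7 CPM at days 8 and 12, against 40.7 and 43.7 CPM in ES cells in KO cells (adjusted p = 0.34).

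Of 13429 genes tested, 2349 (17.5%) changed between differentiated KO and KO ES cells, by edgeR's quasi-likelihood test at a Benjamini-Hochberg adjusted p under 0.05. Of these, 1478 (11.0%) were higher and 871 (6.49%) lower, and 1270 (9.46%) rose and 484 (3.6%) fell by at least 2-fold. The median log2 fold change over all genes tested was 0.02. Each day is 1 library and can only be described: at day 8, 1545 genes (11.5%) stood at least 2-fold above the ES mean and 892 (6.64%) below it, and at day 12 2689 (20%) above and 1694 (12.6%) below. Both days shared 1394 (10.4%) of the genes above and 681 (5.07%) of those below, as shares of all genes tested. Among the genes that rose, 1361 were higher at day 12 than at day 8, with median log2 changes of 1.41 at day 8 and 2.35 at day 12. Among the genes that fell, 729 were lower at day 12, with medians of -0.91 and -1.31. The count rests on both ES libraries: it was 65 without ES replicate 1, with 21 higher and 44 lower, and 29 without ES replicate 2, with 7 higher and 22 lower, so that falls outnumbered rises in both. It was 3416 without day 8 (2085 higher and 1331 lower) and 388 without day 12 (263 higher and 125 lower). All 2349 genes kept their sign in these 4 fits. They had been called on the same libraries, so the kept sign was largely set in advance and is not independent support.

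**Figure D1:**
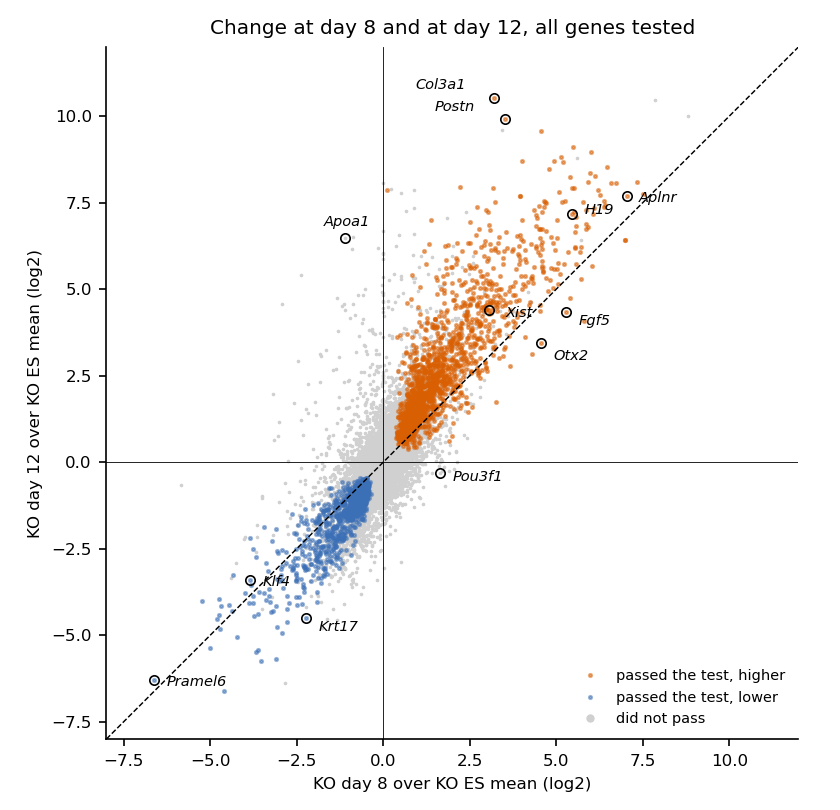
Each point is 1 of the 13429 genes tested, with its log2 ratio to the mean of the 2 KO ES libraries at day 8 (x axis) and at day 12 (y axis), on CPM plus 0.1. Coloured points passed the edgeR test over both days, and 1361 of the genes that rose lie above the line of equal change, on the side of day 12.

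Genes of the core and naive pluripotency network fell, but not all of them. Of 34 genes tested, 14 fell and none rose, where 6.49% of all genes fell. The list's median log2 fold change was -1.46, with -0.96 at day 8 and -2.25 at day 12. In WT cells the median was -3.92 and 32 of the genes fell. Tfcp2l1, a factor of the naive state, was at 149 and 156 CPM at days 8 and 12, against 719.5 and 639.9 CPM in ES cells (log2 fold change -2.15, SE 0.21, edgeR adjusted p = 0.0021). Nanog, a core factor of self-renewal, was at 288 and 215 CPM at days 8 and 12, against 1131 and 1087 CPM in ES cells (-2.14, SE 0.40, adjusted p = 0.013). Klf4, a Krüppel-like factor of naive cells, was at 37.8 and 52.2 CPM at days 8 and 12, against 554 and 545 CPM in ES cells (-3.61, SE 0.86, adjusted p = 0.025). For these 3 genes both differentiated libraries were far below both ES libraries, already at day 8. Jam2, a junctional adhesion gene, was at 20.4 and 12.5 CPM at days 8 and 12, against 280.1 and 260.3 CPM in ES cells (-4.04, SE 0.56, adjusted p = 0.0052). Tbx3, Fbxo15, Zfp296, Klf5, Trim28, Tcl1, Zfp42, Tdh, Gdf3 and Nr0b1 were the others that fell.

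Pou5f1, Sox2 and Esrrb did not pass the test. Pou5f1, which encodes OCT4, was at 1063 and 418 CPM at days 8 and 12, against 1646 and 2034 CPM in ES cells (log2 fold change -1.31, SE 0.48, edgeR adjusted p = 0.086). Sox2, its partner, was at 1212 and 537 CPM at days 8 and 12, against 1608 and 1856 CPM in ES cells (adjusted p = 0.22), and Esrrb, an orphan nuclear receptor of naive cells, at 483 and 237 CPM at days 8 and 12, against 1132 and 1207 CPM in ES cells (adjusted p = 0.072). All 3 were below both ES libraries on both days, and lower at day 12 than at day 8. Utf1, a chromatin factor of pluripotent cells, was above the ES libraries at day 8 and below them at day 12, at 899 and 352 CPM at days 8 and 12, against 741 and 807 CPM in ES cells. Of the 34 pluripotency genes, 3 and 1 passed without ES replicate 1 and ES replicate 2, 22 without day 8 and 4 without day 12, while 31 fell with day as a term and 24 with DESeq2.

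**Figure D2:**
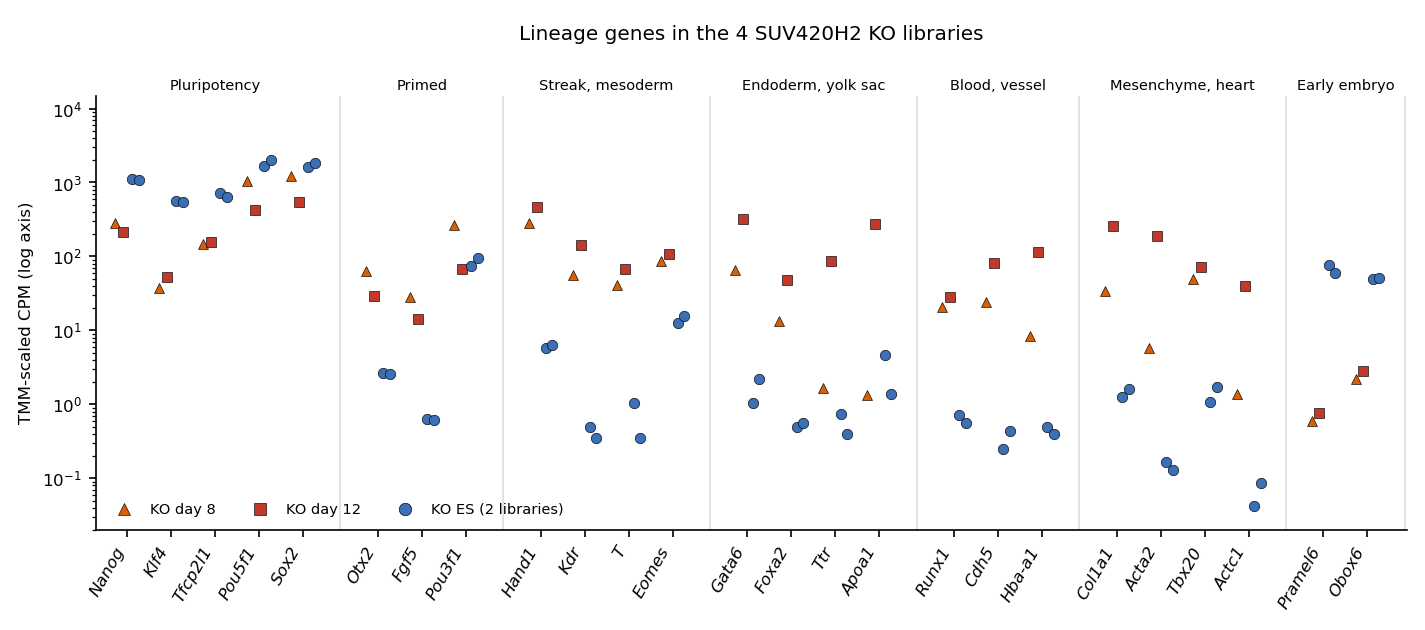
TMM-scaled CPM (log axis) of marker genes, grouped by lineage, in the 4 KO libraries: day 8, day 12 and the 2 ES libraries. Pluripotency genes lie below their ES values on both days, Hand1 and Kdr are already high at day 8, and Apoa1 is high at day 12 alone.

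Epiblast-like genes did not move in 1 direction, and Otx2, Fgf5 and Lef1 were highest at day 8. Of 19 primed pluripotency genes tested, 8 rose and none fell, where 11.0% of all genes rose, and the list's median log2 fold change was 1.09. At day 12, 6 genes of the list were at least 2-fold below the ES mean, and 5 were below both ES libraries on both days. Otx2, a homeobox gene of the epiblast, was at 64 and 29.3 CPM at days 8 and 12, against 2.63 and 2.61 CPM in ES cells (log2 fold change 4.15, SE 0.42, edgeR adjusted p = 0.0025). Fgf5, the growth factor that marks this stage, was at 28 and 14.3 CPM at days 8 and 12, against 0.626 and 0.609 CPM in ES cells (5.09, SE 0.97, adjusted p = 0.013). Both were higher at day 8 than at day 12 and above both ES libraries on each day. Pou3f1, another epiblast transcription factor, was high at day 8 only, at 263 and 68.5 CPM at days 8 and 12, against 73.9 and 95.2 CPM in ES cells (adjusted p = 0.35). Dnmt3b, a de novo DNA methyltransferase gene, was at 393 and 151 CPM at days 8 and 12, against 275 and 270.2 CPM in ES cells (adjusted p = 1.0). Sox4, Dusp6, Lef1, Fgf15, Cdh2 and Sall2 were the others that rose. Of this list 1 passed without ES replicate 1, none without ES replicate 2 and 4 without day 12. Without day 8, 6 rose and 4 fell.

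Primitive streak and early mesoderm genes were high from day 8 on. All 19 genes tested were higher in both differentiated libraries than in both ES libraries, where 35.2% of all genes were, and 9 passed the test. The median log2 fold change was 4.1, with 3.26 at day 8 and 4.35 at day 12. Hand1, a factor of extra-embryonic and lateral mesoderm, was at 287 and 460.1 CPM at days 8 and 12, against 5.75 and 6.44 CPM in ES cells (log2 fold change 5.94, SE 0.69, edgeR adjusted p = 0.0037). Kdr, the VEGF receptor of mesoderm and endothelium on chromosome 5, was at 56 and 142 CPM at days 8 and 12, against 0.50 and 0.348 CPM in ES cells (7.85, SE 1.54, adjusted p = 0.014). Foxf1a, a forkhead factor of lateral mesoderm, was at 23.8 and 65.3 CPM at days 8 and 12, against 0.334 and 0.087 CPM in ES cells (7.68, SE 0.97, adjusted p = 0.0043). In each of the 3 genes the day 12 library was the highest and the groups did not overlap. Snai2, Lhx1, Mesp1, Pdgfra, Tbx6 and Fgf8 also rose. T (Brachyury), the defining streak factor, was at 41.7 and 68.2 CPM at days 8 and 12, against 1.04 and 0.348 CPM in ES cells (adjusted p = 0.061), and Eomes, a T-box factor of streak and endoderm, at 88.1 and 107 CPM at days 8 and 12, against 12.6 and 15.5 CPM in ES cells (adjusted p = 0.064). Aplnr, the apelin receptor, had the largest log2 change among the genes that rose with at least 5 RPKM in both differentiated libraries, at 32.9 and 52.4 CPM at days 8 and 12, against 0.0417 and 0.261 CPM in ES cells (8.11, SE 2.31, adjusted p = 0.043). With either ES library left out none of the streak genes passed, and 4 passed without day 12.

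Some endoderm regulators rose, while serum protein genes of yolk sac and liver were more often high at day 12 than at day 8. Of 15 endoderm transcription factors 6 rose and 1 fell, where 11.0% and 6.49% of all genes did. Gata6, a GATA factor of primitive endoderm and heart, was at 64.8 and 321 CPM at days 8 and 12, against 1.04 and 2.18 CPM in ES cells (log2 fold change 6.9, SE 1.07, edgeR adjusted p = 0.0069). Foxa2, a pioneer factor of definitive endoderm, was at 13.4 and 47.7 CPM at days 8 and 12, against 0.50 and 0.566 CPM in ES cells (5.83, SE 1.54, adjusted p = 0.034). Cdx2, Foxa1, Foxq1 and Gata4 also rose. Of 22 serum protein and endocytosis genes 3 rose, Dab2, Spink3 and Ttr, a share near the 11.0% of all genes. At day 8, 7 were at least 2-fold above the ES mean and 7 below it (11.5% and 6.64% of all genes). At day 12, 15 were above and 1 below (20% and 12.6%). Dab2 and Spink3 were above both ES libraries at day 8 already. With a filter of 1 RPKM in 2 or more of the 4 KO libraries, 9 genes remained. Their median log2 fold change was -0.06, against 3.81 for the 22. Ttr, the transthyretin carrier of thyroid hormone, was at 1.64 and 85.6 CPM at days 8 and 12, against 0.751 and 0.392 CPM in ES cells (6.24, SE 1.87, adjusted p = 0.049). Apoa1, an apolipoprotein gene, was at 1.35 and 278 CPM at days 8 and 12, against 4.67 and 1.39 CPM in ES cells (adjusted p = 0.070), and Afp, the fetal serum protein, at 1.22 and 94.2 CPM at days 8 and 12, against 0 and 0.0435 CPM in ES cells (adjusted p = 0.075). In Ttr, Apoa1 and Afp the day 8 library was low and day 12 stood alone. The serum protein list's median log2 change was 0.38 at day 8 and 4.54 at day 12; 12 of its genes passed without day 8 and none without day 12. With either ES library left out no gene of these lists passed.

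Keratins of simple epithelium rose as well. In the list of basement membrane and parietal endoderm 5 of 15 genes rose and none fell: Krt19, Krt18, Krt8, Thbd and Plat. Of all genes tested 11.0% rose and 6.49% fell. Krt19 was at 124 and 375 CPM at days 8 and 12, against 10.7 and 12.4 CPM in ES cells (log2 fold change 4.43, SE 0.63, edgeR adjusted p = 0.0053). Of 11 genes of surface ectoderm and epithelium, Cldn7 rose and Krt17 fell. Of 12 trophoblast genes, Hand1, Cdx2 and Peg10 rose, which other tissues also express, and the more restricted Elf5, Gcm1 and Tpbpa did not reach the filter on low values. No gene of these 3 lists passed with either ES library left out.

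Some regulators of blood and endothelium rose. Of 24 genes 10 rose and none fell, where 11.0% of all genes rose, with a median log2 fold change of 2.54. Runx1, which definitive blood formation requires, was at 20.6 and 28.3 CPM at days 8 and 12, against 0.709 and 0.566 CPM in ES cells (log2 fold change 5.25, SE 0.87, edgeR adjusted p = 0.0085). Cdh5, the cadherin of endothelial junctions, was at 24 and 81 CPM at days 8 and 12, against 0.25 and 0.435 CPM in ES cells (7.24, SE 1.35, adjusted p = 0.012). Flt1, Fli1, Itga2b, Cd34, Lmo2, Cd93, Erg and Tal1 were the others. None passed with either ES library left out, and 2 passed without day 12.

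Globin transcripts were highest at day 12. Hba-a1 and Hba-a2, alpha-globin genes on chromosome 11, are near-identical copies whose read split is uncertain, so they count as 1 observation. Hba-a1 was at 8.34 and 114 CPM at days 8 and 12, against 0.50 and 0.392 CPM in ES cells (log2 fold change 7.08, SE 1.88, edgeR adjusted p = 0.035), and Hba-a2 at 8.34 and 114 CPM at days 8 and 12, against 0.50 and 0.392 CPM in ES cells. Hba-x, the embryonic zeta-globin, was at 22.9 and 143 CPM with no reads in either ES library, at least 648-fold higher against a floor of 3 counts per library (adjusted p = 0.074). Hbb-bh1, an embryonic beta-like globin, was at 45.1 and 103 CPM, also with no ES reads (at least 580.2-fold higher, adjusted p = 0.081). All of these were well above ES cells on both days. Of 12 globin and erythroid genes tested, the Hba-a1 and Hba-a2 pair alone passed, and it did not pass with either ES library or with day 12 left out. With no filter on low values 6 genes of the list passed, and with DESeq2 7. With a block for ES replicate number and day none passed.

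The promoters of the 3 alpha-like genes are shown so that the near-identical pair can be set beside the third gene. They are RefSeq sequences on GRCm38.p6, plus strand, from 250 bases before to 50 after the annotated start, at chr11:32283422-32283721, chr11:32296242-32296541 and chr11:32276350-32276649. Capitals mark a GATA motif (GATAA), a box for Krüppel-like factors (CACCC), a promoter box (CCAAT) and a TATA box (TATAA), each searched on both strands.
Hba-a1: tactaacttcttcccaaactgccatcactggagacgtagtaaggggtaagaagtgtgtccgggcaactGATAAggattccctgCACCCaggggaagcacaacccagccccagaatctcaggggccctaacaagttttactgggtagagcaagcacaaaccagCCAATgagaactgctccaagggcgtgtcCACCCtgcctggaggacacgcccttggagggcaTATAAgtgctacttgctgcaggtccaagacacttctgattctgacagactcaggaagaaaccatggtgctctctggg
Hba-a2: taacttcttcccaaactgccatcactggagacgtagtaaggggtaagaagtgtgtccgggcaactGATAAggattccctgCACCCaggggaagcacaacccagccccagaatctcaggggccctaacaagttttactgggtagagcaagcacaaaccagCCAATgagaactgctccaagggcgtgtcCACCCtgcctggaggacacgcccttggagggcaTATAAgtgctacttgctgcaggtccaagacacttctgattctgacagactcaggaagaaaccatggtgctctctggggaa
Hba-x: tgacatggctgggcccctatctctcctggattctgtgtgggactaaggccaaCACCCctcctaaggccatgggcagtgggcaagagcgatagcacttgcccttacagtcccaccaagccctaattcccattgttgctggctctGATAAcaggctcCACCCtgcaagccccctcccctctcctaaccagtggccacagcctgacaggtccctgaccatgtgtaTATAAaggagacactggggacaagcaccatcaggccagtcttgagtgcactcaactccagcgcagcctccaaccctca
In a global alignment Hba-a1 and Hba-a2 were identical in 297 of 303 columns (98.0%), and Hba-a1 and Hba-x in 181 of 344 (52.6%). The other columns of the Hba-a1 and Hba-a2 pair were gaps at the window ends, where the windows are offset. No base aligned between that pair differed. CCAAT was found in Hba-a1 and Hba-a2 and not in this window of Hba-x. Of 32851 RefSeq promoters of this length, 25.41% hold GATAA, 57.52% CACCC, 37.41% CCAAT and 24.87% TATAA.

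Mesenchyme and smooth muscle genes were mostly higher in differentiated KO cells. Of 23 genes 17 rose, where 11.0% of all genes did, and none fell. The median log2 fold change was 5.92, or 4.51 with genes lacking ES reads set at their lower bound. The medians at day 8 and day 12 were 2.69 and 5.25. With the filter on the 4 KO libraries 15 genes remained, of which 10 rose, and the median was 2.8. Twist2, a helix-loop-helix factor of mesenchyme, was at 16.8 and 45.1 CPM at days 8 and 12, against 0.292 and 0.087 CPM in ES cells (log2 fold change 7.3, SE 0.77, edgeR adjusted p = 0.0028). Col1a1, a fibrillar collagen, was at 34.4 and 259.8 CPM at days 8 and 12, against 1.25 and 1.61 CPM in ES cells (6.68, SE 0.90, adjusted p = 0.0050). Acta2, the smooth muscle actin, was at 5.73 and 189.7 CPM at days 8 and 12, against 0.167 and 0.131 CPM in ES cells (9.31, SE 1.74, adjusted p = 0.012). Postn, a matrix protein, had no ES reads and was at 1.05 and 96.5 CPM, at least 382-fold higher (adjusted p = 0.034). Twist2 was already high at day 8, whereas Acta2 and Postn were mainly high at day 12. Fibroblast feeder cells also express Col1a1, Acta2 and Postn, which were near 0 in the ES libraries; whether other cells were present during differentiation was not tested. Of 22 collagen genes 11 rose, and of 23 genes of epithelial-mesenchymal transition 11, with no fall in either list. Both lists share members with the mesenchyme list, such as Col1a1 and Twist2, so they are not separate support. With the filter on the 4 KO libraries 12 collagen genes remained, of which 5 rose, and all 23 transition genes, of which 11 rose. Without ES replicate 1, 1 mesenchyme gene passed, without ES replicate 2 none, and without day 12 5.

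Of 20 cardiac genes 7 rose, most of them regulators, and none fell, where 11.0% and 6.49% of all genes did. The median log2 fold change was 3.28, but 0.68 over the 9 genes left by the filter on the 4 KO libraries. Tbx20, a T-box factor of the heart, was at 49.3 and 73 CPM at days 8 and 12, against 1.08 and 1.74 CPM in ES cells (log2 fold change 5.43, SE 0.98, edgeR adjusted p = 0.011). Hand2, a factor of ventricle and limb bud, was at 50.9 and 319 CPM at days 8 and 12, against 2.5 and 1.52 CPM in ES cells (6.52, SE 1.22, adjusted p = 0.012). Isl1, Mef2c and Gata5 also rose, as did the sarcomere genes Actc1, at 1.39 and 39.7 CPM at days 8 and 12, against 0.0417 and 0.087 CPM in ES cells, and Myh7, at 4.97 and 46.5 CPM at days 8 and 12, against 2.0 and 2.61 CPM in ES cells. Myl7, an atrial myosin light chain, was at 0.758 and 2.97 CPM at days 8 and 12, against 3.29 and 3.09 CPM in ES cells (adjusted p = 0.55), with both differentiated values below both ES values. None passed with either ES library left out, and 2 passed without day 12.

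Neural genes fell more often than they rose. Of 19 genes of neural progenitors and neurons 6 fell and 2 rose, where 6.49% and 11.0% of all genes did, and the median log2 fold change was -1.0. Sox1, an early neural plate factor, was at 5.14 and 5.86 CPM at days 8 and 12, against 18.9 and 21.2 CPM in ES cells (log2 fold change -1.86, SE 0.20, edgeR adjusted p = 0.0029). Stmn2, a microtubule regulator of neurites, was at 33.7 and 28.4 CPM at days 8 and 12, against 215 and 196 CPM in ES cells (-2.72, SE 0.44, adjusted p = 0.0081). Tubb3, a neuronal tubulin, was at 103 and 49.9 CPM at days 8 and 12, against 360.3 and 439.5 CPM in ES cells (-2.39, SE 0.40, adjusted p = 0.0085). Each was detected in KO ES cells and lower on both days. Neurog1, Pou4f1 and En2 also fell, and the homeobox genes Irx3 and Nkx6-1 rose. Of the list 1 gene passed with either ES library left out and 2 without day 12.

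Some transcripts of the early embryo that KO ES cells held fell. Pramel6, a PRAME-family gene on chromosome 2, had the largest fall among genes with at least 5 RPKM in both ES libraries, at 0.59 and 0.769 CPM at days 8 and 12, against 76.7 and 59.6 CPM in ES cells (log2 fold change -6.63, SE 0.61, edgeR adjusted p = 0.0036). Pramel7, of the same family, was at 2.53 and 0.549 CPM at days 8 and 12, against 68.9 and 58 CPM in ES cells (-5.37, SE 0.88, adjusted p = 0.012). Obox6, a homeobox gene of the oocyte, was at 2.19 and 2.78 CPM at days 8 and 12, against 49.1 and 50.5 CPM in ES cells (-4.32, SE 0.81, adjusted p = 0.014). All 3 were low at day 8 already. Members of these families resemble each other, which leaves the assignment of their reads uncertain. Of 6 Pramel and Obox genes tested 3 fell, where 6.49% of all genes did. Of 15 germline genes Tex19.1 and Fkbp6 fell, and of 9 genes listed for the 2-cell-like state Eif1a. No gene of these lists rose, where 11.0% of all genes did. Eif1a was at 188.5 and 149.2 CPM at days 8 and 12 in KO, against 328.8 and 274.9 CPM in KO ES cells. It was also at 333.1 and 337.6 CPM in WT ES cells, so its fall does not mark a 2-cell-like state. Irak3, an inhibitor of Toll-like receptor signalling, was at 2.15 and 2.23 CPM at days 8 and 12, against 49.8 and 42.2 CPM in ES cells (-4.39, SE 0.28, adjusted p = 8.9e-04). Gm15698, 2210409E12Rik, Smtnl1, Jam2, Tgm1 and B3gnt3 were the rest of the 10 largest falls. Of the Pramel and Obox genes 1 passed without ES replicate 1, none without ES replicate 2 and 2 without day 12.

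Hox genes, which encode position along the body axis, rose from low levels. Of 31 tested 13 rose and 1 fell, where 11.0% and 6.49% of all genes did. The median log2 fold change was 2.57, and genes of all 4 clusters were among the rises. Hoxb3 was at 13.5 and 22.7 CPM at days 8 and 12, against 0.167 and 0.305 CPM in ES cells (log2 fold change 6.24, SE 0.80, edgeR adjusted p = 0.0043), and Hoxa11 at 2.78 and 10.6 CPM at days 8 and 12, against 0.292 and 0.174 CPM in ES cells (4.81, SE 0.72, adjusted p = 0.0066). Hoxb6 was at 4.09 and 2.56 CPM with no ES reads, at least 26-fold higher (adjusted p = 0.0084). Hoxc12 was at 0 and 0.0732 CPM at days 8 and 12, against 2.63 and 2.48 CPM in ES cells (adjusted p = 0.042), the one that fell. None passed with either ES library left out, and 4 passed without day 12.

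Imprinted genes, expressed from 1 parental copy, rose more often than they fell. Of 34 tested 11 rose and 5 fell, where 11.0% and 6.49% of all genes did. The median log2 changes were 0.41 at day 8 and 1.87 at day 12. H19, a maternally expressed non-coding RNA on chromosome 7, was at 2394 and 7882 CPM at days 8 and 12, against 48.4 and 60.5 CPM in ES cells (log2 fold change 6.56, SE 0.63, edgeR adjusted p = 0.0021). Igf2, the paternally expressed growth factor gene beside it, was at 306 and 1438 CPM at days 8 and 12, against 10.8 and 15.8 CPM in ES cells (6.03, SE 1.38, adjusted p = 0.022). Both were far above ES cells at day 8 and higher again at day 12. Sgce, Asb4, Peg10, Meg3, Gnas, Nnat, Peg3, Mest and Airn also rose. Grb10, an adaptor that restrains growth factor signalling, was at 29.1 and 16.6 CPM at days 8 and 12, against 113 and 107 CPM in ES cells (-2.27, SE 0.32, adjusted p = 0.0053), and Slc22a18, Phlda2, Cobl and Ddc also fell. Dlk1 and Plagl1 were high at day 12 alone, at 10.4 and 279 CPM at days 8 and 12, against 15.8 and 15.4 CPM in ES cells for Dlk1 (adjusted p = 0.11) and 28.4 and 821 CPM at days 8 and 12, against 109.5 and 87.8 CPM in ES cells for Plagl1 (adjusted p = 0.22). Of 16 genes of the IGF axis 9 rose and 1 fell; Igf1r, the receptor, was at 119.9 and 191 CPM at days 8 and 12, against 39.1 and 29.8 CPM in ES cells (2.17, SE 0.26, adjusted p = 0.0038). Of the imprinted genes 1 passed with either ES library left out and 4 without day 12.

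Mir675, the microRNA gene inside H19, was at 82.2 and 269 CPM at days 8 and 12, against 1.5 and 1.92 CPM in ES cells (log2 fold change 6.68, SE 0.70, edgeR adjusted p = 0.0028). In polyadenylated RNA these reads cannot be told apart from H19, so they do not measure the mature microRNA. Its mature products are shown from RefSeq (GRCm38.p6, minus strand, chr7:142577112-142577133 and chr7:142577078-142577099), with the seed, bases 2 to 8, in capitals; the 2 seeds differ.
mmu-miR-675-5p: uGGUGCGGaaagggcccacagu
mmu-miR-675-3p: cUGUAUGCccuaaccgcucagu

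Rises outnumbered falls among genes of BMP signalling and of the Wnt and FGF-ERK pathways, and some Wnt genes fell. Of 18 BMP, Id and TGF-beta genes 10 rose and none fell, where 11.0% and 6.49% of all genes did. Bmp2, a ligand, was at 25.4 and 52 CPM at days 8 and 12, against 0.375 and 0.305 CPM in ES cells (log2 fold change 6.81, SE 1.13, edgeR adjusted p = 0.0086), and Id1, a BMP target, at 73.1 and 134 CPM at days 8 and 12, against 32.8 and 37.2 CPM in ES cells (1.56, SE 0.27, adjusted p = 0.0096). Of 20 canonical Wnt genes 8 rose and 3 fell. Fzd7, a Wnt receptor, was at 431 and 639.8 CPM at days 8 and 12, against 161 and 171 CPM in ES cells (1.69, SE 0.27, adjusted p = 0.0075), and Notum, a secreted Wnt deacylase, at 26.3 and 10.1 CPM at days 8 and 12, against 146 and 156 CPM in ES cells (-3.05, SE 0.55, adjusted p = 0.011), with Cdx1 and Ccnd1 also lower. The protocol given for all samples names passaging with a GSK3 inhibitor, which raises Wnt targets. The labels do not say whether it was present during differentiation, and its part in these changes was not tested. Of 18 FGF-ERK genes 9 rose and none fell, although 5 were below both ES libraries on both days, and without day 8 8 rose and 2 fell. Dusp4, a phosphatase that ERK induces, was at 155 and 239.8 CPM at days 8 and 12, against 28.7 and 30.3 CPM in ES cells (2.74, SE 0.30, adjusted p = 0.0030). Of these lists only the FGF-ERK one had a gene past the test without ES replicate 1 (1), and none had one without ES replicate 2.

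Genes of glycolysis and the hypoxia response rose to a similar level on both days. Of 31 tested 14 rose and none fell, where 11.0% and 6.49% of all genes did. The median log2 changes were 1.08 at day 8 and 1.08 at day 12. Egln1, an oxygen-sensing hydroxylase, was at 439.5 and 573 CPM at days 8 and 12, against 81.6 and 99.5 CPM in ES cells (log2 fold change 2.48, SE 0.33, edgeR adjusted p = 0.0049), and Tpi1, a glycolytic enzyme, at 1100 and 1121 CPM at days 8 and 12, against 398 and 398 CPM in ES cells (1.48, SE 0.22, adjusted p = 0.0057). Of 26 stress and immediate early genes 6 fell and 2 rose. Psat1, an enzyme of serine synthesis, was at 155 and 159.9 CPM at days 8 and 12, against 500 and 427 CPM in ES cells (-1.56, SE 0.15, adjusted p = 0.0021), with Nupr1, Chac1, Asns, Trib3 and Ier2 also lower and Ddit4 and Jun higher. Of 25 interferon and antigen presentation genes 5 rose and 3 fell, with Psmb8, an immunoproteasome subunit, at 14.7 and 11.6 CPM at days 8 and 12, against 0.167 and 0.087 CPM in ES cells (6.63, SE 0.87, adjusted p = 0.0046). Without ES replicate 1 and ES replicate 2, 3 and 2 stress genes passed, and no gene of the other 2 lists.

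In the replication and heterochromatin lists the count of falls depended on the fit. Of 43 replication genes 4 fell and none rose, where 6.49% and 11.0% of all genes did. Still, 37 were lower in both differentiated libraries than in both ES libraries, where 34.3% of all genes were. With day as a term 23 replication genes fell, and with DESeq2 14. Of 33 heterochromatin factors Zfp57, Trim28 and Smarcad1 fell and Kdm4b rose, whereas 10 fell with day as a term and 9 with DESeq2. By the main fit, falls in the replication, heterochromatin, H4K20, Polycomb, DNA methylation, cell cycle and p53 lists were near the share over all genes. Zfp57, which guards methylation at imprinted loci, was at 100.3 and 89.4 CPM at days 8 and 12, against 503 and 458 CPM in ES cells (log2 fold change -2.34, SE 0.41, edgeR adjusted p = 0.011). Of 14 H4K20 enzymes Smyd5 fell (-0.61, SE 0.16, adjusted p = 0.034). Satb1, a chromatin organiser, alone rose among 34 genome architecture genes, at 17.7 and 27.5 CPM at days 8 and 12, against 2.92 and 3.13 CPM in ES cells (2.9, SE 0.28, adjusted p = 0.0021), and it passed in each fit that left out 1 KO library. Pcgf5 rose and Eed, Pcgf6 and E130012A19Rik fell among 31 Polycomb genes, Uhrf2, Mbd2 and Tet3 rose and Tet2 fell among 16 DNA methylation genes, and Cdkn1b and Ccnd2 rose and Ccnd1, Ccne1 and Cdk2 fell among 34 cyclins and CDK inhibitors. Rpl22 alone rose among 40 ribosomal protein genes, and Fas rose and 9630033F20Rik and Gdf15 fell among 33 p53 targets. Hmga2 and Igf2bp2 rose and Igf2bp1 and Mycn fell among 11 oncofetal genes. Among 8 macrophage markers Laptm5 alone passed the test, and it fell. The median log2 change of these markers was -1.0 at day 8 and 2.66 at day 12. At day 8, 4 were at least 2-fold below the ES mean and 0 above (6.64% and 11.5% of all genes). At day 12, 6 were above and 1 below (20% and 12.6% of all genes). With either ES library left out, no replication, heterochromatin, H4K20, Polycomb, DNA methylation or cell cycle gene passed.

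**Figure D3:**
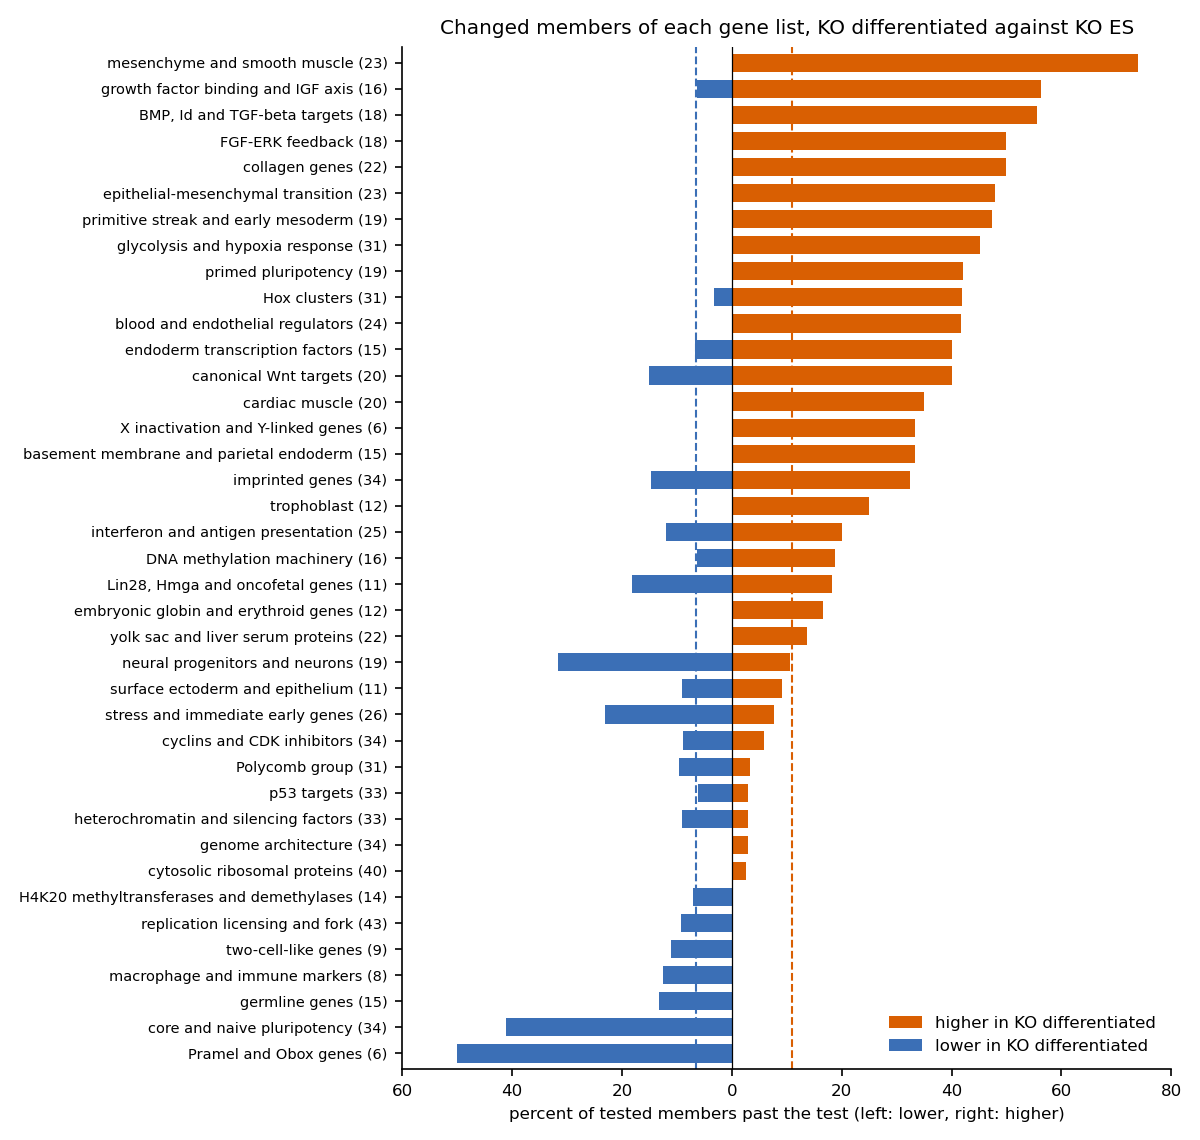
Percent of the tested members of each of the 39 gene lists that rose or fell in differentiated KO against KO ES cells by the edgeR test. Dashed lines mark the shares over all genes tested, 11.0% higher and 6.49% lower, and the bar for mesenchyme stands for 17 of 23 genes.

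Xist, the RNA that coats and silences an X chromosome, rose in the KO line. It was at 257 and 645 CPM at days 8 and 12, against 40.3 and 21.3 CPM in ES cells (log2 fold change 3.87, SE 0.54, edgeR adjusted p = 0.0053). In DKO cells Xist was at 10.8 and 4.81 CPM at days 8 and 12, against 18.4 and 19.8 CPM in DKO ES cells, and in WT cells at 1.24 and 0.758 CPM at days 8 and 12, against 18.7 and 19.8 CPM in WT ES cells. Both differentiated KO libraries were above every other library, while differentiated DKO and WT libraries were below their ES cells. In log2 units the KO change exceeded the DKO change by 5.17 (SE 0.73, adjusted p = 0.017) and the WT change by 8.13 (SE 0.81, adjusted p = 0.0074). Tsix, its antisense partner, was at 44.6 and 103 CPM at days 8 and 12, against 16.4 and 9.97 CPM in ES cells (2.48, SE 0.47, adjusted p = 0.013); the library kit named in the labels does not mark strand, so reads where the 2 genes overlap cannot be told apart. The Y-linked Ddx3y, Eif2s3y and Uty had 0 or 1 reads in each KO library and 277 to 1347 in each WT library. That difference and the loss of SUV420H2 cannot be told apart in the contrast with WT; DKO libraries, too, had 0 or 1 such reads. Neither Xist nor Tsix passed in KO with either ES library left out; Xist passed without day 8 and without day 12, and Tsix without day 8 only.

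X-linked genes were lower as a group, a comparison chosen after the values were seen and not tested. Over 496 X-linked genes the median log2 fold change was -0.19, with -0.10 at day 8 and -0.31 at day 12. Single autosomes had medians between -0.09 and 0.14, and at day 12 between -0.12 and 0.18. Of the X-linked genes 6.45% rose and 9.48% fell, against 11.2% and 6.4% of autosomal genes. The X-linked median was 0.00 in DKO and 0.27 in WT cells. Under the alternatives run, the X-linked median in KO lay between -0.32 and -0.05, and below the autosomal median of the same fit each time; it was -0.32 without day 8 and -0.11 without day 12.

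**Figure D4:**
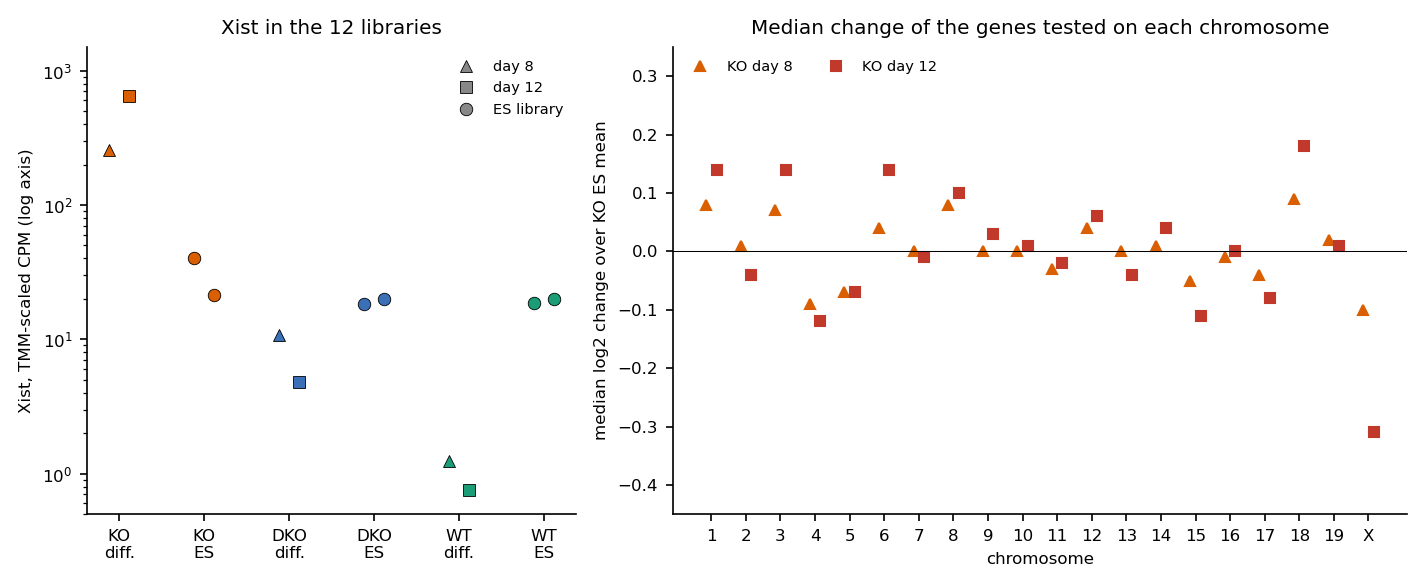
Left, TMM-scaled CPM of Xist (log axis) in the differentiated and ES libraries of KO, DKO and WT cells. Right, the median log2 change over the KO ES mean of the genes on each chromosome at day 8 and day 12, with X at -0.10 and -0.31.

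Most genes that changed in the KO line changed the same way in WT cells, where 7563 genes (56.3%) changed, 29.3% up and 27% down. Of the genes that rose in KO, 1297 (87.8%) also rose in WT, where they were 32.9% of the rises. Of those that fell, 707 (81.2%) also fell in WT, 19.5% of the falls there. The directions were opposite in 28 genes. A test of the difference between the changes called 90 genes (0.67%), 40 (0.298%) with the KO change above and 50 (0.372%) below that of WT, and 3339 had an unadjusted p under 0.05. The count was 0 without KO ES replicate 1, 4 without KO ES replicate 2, 15 without KO day 8 and 1461 without KO day 12. The balance of directions also moved: 1218 genes had the KO change above and 972 below that of WT with day as a term, 11 above and 33 below with the libraries of the contrast alone, and 813 above and 648 below without KO day 12.

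Of 18 FGF-ERK genes 4 were among those calls, all with the KO change above the WT change. Dusp6, an ERK phosphatase, was at 105 and 142 CPM at days 8 and 12 in KO, against 38.6 and 44 CPM in KO ES cells, and at 106 and 57.2 CPM at days 8 and 12 in WT, against 144 and 147 CPM in WT ES cells (log2 difference 2.42, SE 0.39, adjusted p = 0.042 by edgeR). Spry4, an inhibitor of receptor tyrosine kinase signalling, was at 124 and 61.2 CPM at days 8 and 12 in KO, against 167 and 151 CPM in KO ES cells, and at 40.5 and 36.7 CPM at days 8 and 12 in WT, against 729.8 and 734 CPM in WT ES cells (3.47, SE 0.59, adjusted p = 0.048). Spry2 and Etv4 were the others, with log2 differences of 1.9 and 3.5. In all 4 genes KO ES cells were already below WT ES cells. The imprinted genes Grb10, Cdkn1c and Igf2r were also called, with KO changes below those of WT. Cdkn1c, a CDK inhibitor, was at 20.4 and 38.6 CPM at days 8 and 12 in KO, against 23.1 and 28.5 CPM in KO ES cells, and at 674 and 1091 CPM at days 8 and 12 in WT, against 61.6 and 66.2 CPM in WT ES cells (-3.59, SE 0.49, adjusted p = 0.031). Igf2r, the receptor that clears IGF2, was at 131 and 100.2 CPM at days 8 and 12 in KO, against 132 and 122 CPM in KO ES cells, and at 1135 and 883 CPM at days 8 and 12 in WT, against 137 and 129.8 CPM in WT ES cells (-3.05, SE 0.47, adjusted p = 0.040). Differentiated WT cells thus held several-fold more Cdkn1c and Igf2r than any KO library.

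**Figure D5:**
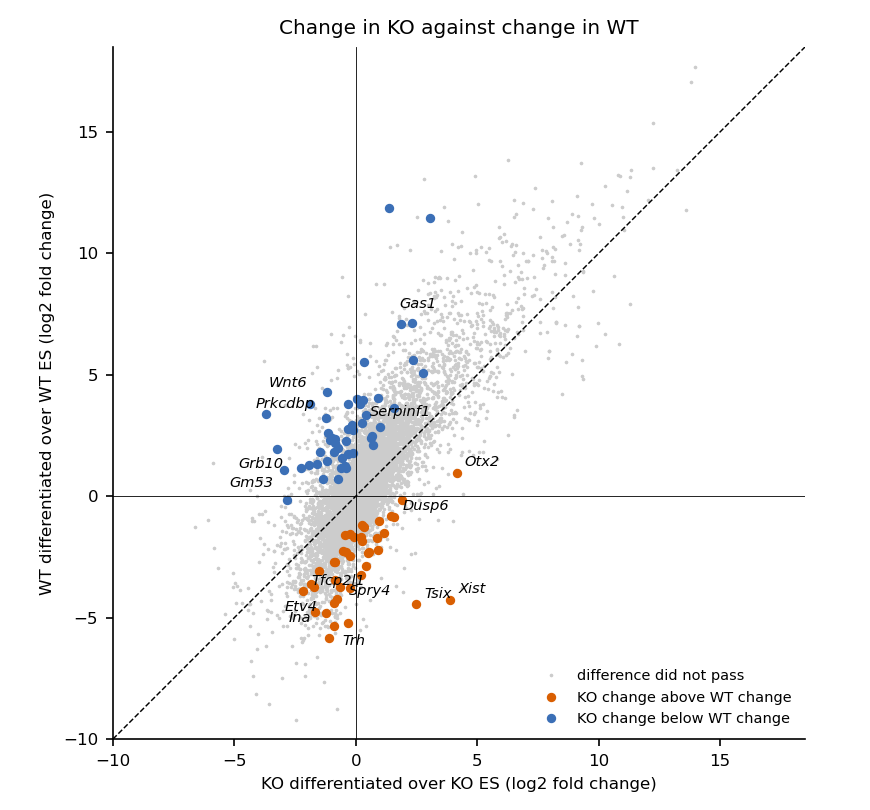
Log2 fold change of differentiated over ES cells in KO (x axis) and in WT (y axis) for the genes tested, with a line of equal change. Coloured points are the 40 and 50 genes whose KO change was above or below that of WT by the edgeR test of the difference, and Xist and Tsix lie below the line.

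Against DKO cells the difference was called in 4.3% of genes, 278 (2.07%) with the KO change above and 299 (2.23%) below that of DKO, and 3394 had an unadjusted p under 0.05. Hand1 was at 287 and 460.1 CPM at days 8 and 12 in KO, against 5.75 and 6.44 CPM in KO ES cells, and at 1.82 and 7.98 CPM at days 8 and 12 in DKO, against 3.99 and 3.79 CPM in DKO ES cells (log2 difference 5.6, SE 0.88, adjusted p = 0.020 by edgeR). H19 was at 2394 and 7882 CPM at days 8 and 12 in KO, against 48.4 and 60.5 CPM in KO ES cells, and at 5.06 and 3.17 CPM at days 8 and 12 in DKO, against 1.34 and 2.61 CPM in DKO ES cells (5.51, SE 0.79, adjusted p = 0.017). Both rose in KO cells and stayed low in all DKO libraries. Of 19 streak genes 4 were called in this test, of 31 Hox genes 6 and of 34 pluripotency genes 2. Mycn, a proto-oncogene of ES cells, was at 328 and 269 CPM at days 8 and 12 in KO, against 466 and 486 CPM in KO ES cells, and at 347 and 434 CPM at days 8 and 12 in DKO, against 22 and 17.9 CPM in DKO ES cells (-4.97, SE 0.29, adjusted p = 4.2e-04), with low DKO ES values. The number of calls was 4 without KO ES replicate 1, 4 without KO ES replicate 2, 1582 without KO day 8 and 114 without KO day 12.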

How the data were processed

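Polyadenylated RNA of 12 libraries was sequenced. The authors deposited 1 table per library with read counts and RPKM for 29257 transcript models; Bowtie2 and mm9 are named per the submitters' processing notes, and no source used here gives the counting tool. The deposited counts are raw, and the authors' RPKM values are scaled by length and library total. For each of 22878 symbols the longest model was kept. Genes that reached 1 RPKM or more in 2 or more libraries were tested on the counts with edgeR 4.0.16 (R 4.3.3; TMM scaling, quasi-likelihood F test, 1 mean per genotype and state over 12 libraries, 6 residual degrees of freedom), with Benjamini-Hochberg adjustment over all genes tested. SE is the log2 fold change over the square root of F. The fit was also run on simulated counts with 1 mean per group and no effect of day. That run cannot give the error rate of a design whose replicates are different days. DESeq2 1.42.0, limma 3.58.1 and other scalings, filters and designs were alternatives. The 2 KO ES libraries differed by more than sampling noise (chi-square per degree of freedom 14.9) and count as 2. Depth limits low genes: floors and bounds cover counting error only.

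Genes were named by rule: the targeted genes, the 10 largest rises and falls with at least 5 RPKM in both libraries of the higher group, up to 3 members of each list by adjusted p, and the 6 largest differences from WT and DKO in each direction. Some genes that the rule names are not reported here. Any further gene in the text was picked with its values in view. Members and lists were chosen with earlier results of these data known. Chromosomes come from RefSeq by symbol (99.1% matched).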

Additional observations from a re-analysis of the deposited data

Results flagged for a closer look

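The change in KO cells differed from that in WT cells by the test of the difference, on the log2 scale, with the KO change higher in Xist (8.13), Tsix (6.93), Trh (4.47), Ina (3.58), Etv4 (3.5) and Spry4 (3.47) and lower in Wnt6 (-5.48), Gas1 (-4.82), Prkcdbp (-4.13), Gm53 (-4.03) and Serpinf1 (-3.94). Trh, which encodes a releasing hormone precursor, was at 428 and 189 CPM at days 8 and 12 in KO, against 504 and 636 CPM in KO ES cells, and at 28.5 and 23.2 CPM at days 8 and 12 in WT, against 1045 and 1071 CPM in WT ES cells. Gas1, a membrane protein of hedgehog signalling, was at 47.2 and 148 CPM at days 8 and 12 in KO, against 18.6 and 20.2 CPM in KO ES cells, and at 596 and 466 CPM at days 8 and 12 in WT, against 4.03 and 3.47 CPM in WT ES cells.

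The change in KO cells also differed from that in DKO cells, with the KO change higher in Mir675 (8.2), Twist2 (7.98), Ripply3 (7.63), Foxf1a (7.12), Tbx2 (6.6) and Gpr124 (6.49) and lower in Snora26 (-7.99), Vrtn (-7.85), 2610035F20Rik (-6.31), Lgals9 (-6.08), Smtnl1 (-6.0) and Fgf17 (-5.75). Ripply3, a transcriptional repressor, was at 1.43 and 2.23 CPM at days 8 and 12 in KO, against 2.0 and 2.61 CPM in KO ES cells, and at 2.21 and 1.68 CPM at days 8 and 12 in DKO, against 495 and 471 CPM in DKO ES cells, so the DKO ES libraries stood apart. Snora26 had no reads in the DKO ES libraries, and Vrtn and Lgals9 had none in 1 of them, so these fitted differences depend on the prior count and are not bounds. These differences were named by their size among the genes called by edgeR, and were not tested in other samples. Reads of Mir675 cannot be told apart from those of H19, whose difference was 5.51, so they are not separate observations.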

How the results depend on the processing

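The median log2 change over all genes tested in KO, 0.02, turned negative with RLE scaling and DESeq2 (-0.01 each), the transcript model with the most reads (-0.02), the filter on the 4 KO libraries (-0.03) and without ES replicate 1 or day 12 (-0.01 each). Of the 2349 genes changed in KO, 2347 kept their direction with that transcript model, and all that were fitted kept it under the other alternatives. All genes called as differing from WT that were fitted kept their direction, and among those differing from DKO 1 did not, with limma on log2(RPKM + 1). Every alternative reused libraries on which the genes had been called, so kept directions are not independent support. The count of genes changed in KO was 1202 with the 4 KO libraries fitted alone, 3933 with day as a term and 3894 with DESeq2, against 2349; leaving out 1 KO library gave 29 to 3416. The count changed at least 2-fold was 1108 with those 4 alone and 1138 with limma on log2(RPKM + 1), against 1754; leaving out 1 library gave 29 to 2766. The count differing from WT was 44 with the libraries of the contrast, 2190 with day as a term and 1760 with DESeq2, against 90, and 0 to 1461 with 1 library left out. The count differing from DKO was 200, 1958 and 2032 in the same fits, and with 1 library left out 4 to 1582. The cause of these shifts was not tested. The other scalings, filters and the transcript model with the most reads kept each of these counts within 1.5 times. List medians could move more: with the filter on the 4 KO libraries the serum protein median was -0.06 and the cardiac one 0.68.

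The replicate numbers of ES cells did not pair the samples: deviations of same-numbered ES libraries correlated at -0.042 to -0.037 between genotypes, and same-day libraries at -0.029 to 0.454. With the replicate block 2924 genes changed in KO, 1973 at least 2-fold, and 1264 and 1042 differed from WT and DKO. In the lists 27 pluripotency, 22 replication and 7 heterochromatin genes fell, no globin gene passed, and 733 genes had the KO change above and 531 below that of WT. With days as the only replicates, the time course and the spread between cultures cannot be told apart, and this limits every p-value given.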
